A study of Homo sapiens with 28 samples.

Results

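The genes described here encode the MRPL and MRPS proteins of the mitochondrial ribosome (mitoribosome), the MRPL name being used for the large and the MRPS name for the small subunit. Members were the genes whose symbol is MRPL or MRPS followed by digits and at most 1 letter A, B or C, each read by its probeset with the highest mean among those with exactly 1 symbol. They were 73 of 18417 genes, and 50 of them belong to the large and 23 to the small subunit. MRPS18A and MRPS30 were counted with the large subunit, where their proteins are now placed. Of the probesets left out because they carry a second symbol, those of MRPL51, MRPS6, MRPS24 and MRPS28 would otherwise have qualified, and MRPS36 matched no probeset. Expression was measured on 28 Affymetrix Human Gene ST1.0 arrays. The cells were HEK293, an established line from human embryonic kidney, infected with lentiviral vectors in which the U6 promoter drives a short hairpin RNA, and kept in puromycin for 6 days. The first series of arrays held 3 hairpins each against CLP1 (a factor of pre-mRNA cleavage), DDX5 and DDX17 (paralogous RNA helicases) and HNRNPL (a splicing regulator), 1 hairpin against CPSF6 (a cleavage factor subunit) and 1 lacZ control. The second held 3 hairpins each against PABPC1 (a poly(A)-binding protein), PARP1 (a poly(ADP-ribose) polymerase), PRKDC (the catalytic subunit of DNA-dependent protein kinase) and SUPT16H (part of the histone chaperone complex FACT), and 2 lacZ controls. lacZ is a bacterial gene that human cells lack, so its hairpin has no human target, and all cells carried the virus and were selected. The hairpins of a gene are different sequences, 1 culture each as far as the labels show, so the spread among them includes their off-target effects.

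The mitoribosome translates the few proteins encoded by mitochondrial DNA, which are subunits of the respiratory chain and of ATP synthase. Its ribosomal RNA is made in the organelle, whereas all of its proteins are encoded in the nucleus, made on cytosolic ribosomes and imported. Part of the proteins descend from those of the bacterial ribosome and part are found in mitochondria but not in bacteria. Of the 50 members of the large subunit 29 were counted as having a bacterial homolog and 21 as mitochondrion-specific. Of the 23 members of the small subunit the counts were 13 and 10. MRPS18A and MRPS18B were counted as mitochondrion-specific although their paralog MRPS18C was counted with the bacterial homologs, so the split is approximate. Promoters of these genes are known for sites of NRF1, of ETS factors such as GABPA (NRF2) and of YY1, regulators shared with many other nuclear genes for mitochondrial proteins.

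Promoters, taken as 250 bases before to 50 after the RefSeq start, were at hand for 66 of the 73 members. The letters CCGGAAG, the core of an ETS site, occurred on either strand in 28 of them (42.4%), against 10.7% of 27305 promoters of all genes. The YY1 letters AAGATGG occurred in 21 (31.8%, against 6.06%), and the NRF1 letters GCGCATGC in 6 (9.09%, against 3.27%). In all 42 promoters held at least 1 of the 3 motifs and 24 held none, and a match is a description and not a proven site. The windows below belong to some of the members whose levels the comparisons turn on and that hold a match. The matching letters are in capitals, with 10 bases on each side, each read 5′ to 3′ along the strand of the gene (RefSeq, GRCh38.p14).
MRPL33, chr2:27771701-27771727, plus strand, ETS, 8 bases before the start: gggccgtgccCCGGAAGcagttgttgt
MRPS22, chr3:139343989-139344015, plus strand, ETS read on the opposite strand, 5 bases after the start: ctcccaaccaCTTCCGGcgcaagtggc
MRPS21, chr1:150293840-150293866, plus strand, ETS read on the opposite strand, 11 bases before the start: gtaatttccgCTTCCGGtagtgagaac
MRPS31, chr13:40771206-40771232, minus strand, ETS, 32 bases before the start: aggcgccaggCCGGAAGcggaagagag
MRPL42, chr12:93467512-93467538, plus strand, YY1, 8 bases after the start: ggattgaaacAAGATGGcgggttcgtg
MRPL32, chr7:42932327-42932354, plus strand, NRF1, 39 bases before the start: ctgtgcctgtGCGCATGCtgaaagcagg
The ETS letters thus stood both in members that rose and in members that fell in the comparisons below. MRPL1 held none of the motifs, MRPL32 also held the YY1 letters, and MRPL38, not shown, held those of ETS and YY1.

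Levels are log2 intensities, and a difference of 1 on this scale is a 2-fold change. The series were normalized apart, with array medians of 61.5 to 74 intensity units in the first and 54.5 to 58.3 in the second, so knockdowns were compared within a series. Values were scaled per array, so fewer transcripts per cell of the whole family cannot be told apart from more of the other RNA. The lacZ array of the first series and lacZ replicate 2 of the second were most likely the same hybridization normalized with each series: their difference had a standard deviation (SD) of 0.0634 over all genes, against 0.164 to 0.758 for hairpin pairs of a target. It was counted once in each series, and the comparison between the series holds it on both sides. Thus the first series had 1 control array, and the 8 comparisons with lacZ rest on 2 control hybridizations. DDX5 hairpin 3 stood apart from hairpin 1 (SD 0.758, with 19 of 73 members over 1 log2 unit apart), and PRKDC hairpin 3 from hairpins 1 and 2 (SD over members 0.503 and 0.49, against 0.159 between those 2 hairpins). The targeted transcript was lower than with lacZ in DDX17 (-1.33), PABPC1 (-2.11), PARP1 (-1.18), PRKDC (-2.26) and SUPT16H (-2.03) knockdown cells, whereas the differences of -0.57 for CLP1, -1.04 for DDX5 and -0.93 for HNRNPL did not pass the test. Of 6 genes typical of HEK293 cells KRT8, KRT18, VIM and NEFL lay at the 91.9 to 99.2 percentile of genes and NEFM and PAX2 at 37.2 and 49.4. Of the markers of other cells PTPRC (blood), DCN and LUM (fibroblasts) lay at 1.58 to 2.13, CD3E, KRT5, COL1A2 and KRT14 at 22.2 to 41.1 and the fibroblast gene COL1A1 at 60.6, above NEFM and PAX2. All comparisons shared 1 estimate of the spread, so leaving out an array of one knockdown also changed the calls of the others.

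Against lacZ, the median member lay above the control in the first series, whereas its place in the second depended on the scaling, given here as a description. On the deposited values the median difference of the 73 members was 0.23 in DDX17, 0.18 in CLP1, 0.15 in HNRNPL and 0.08 in DDX5 knockdown cells, while the median of all genes lay between -0.01 and 0.02. In DDX17 and in CLP1 cells 57 members had a value above the control, in HNRNPL cells 51 and in DDX5 cells 46. In the second series the median was 0.08 in PARP1 and 0.02 in PABPC1 cells, and -0.07 in SUPT16H and -0.11 in PRKDC cells, where all genes had a median of 0.04 to 0.10. On quantile-normalized values all 8 medians were above 0, at 0.20 in PABPC1, 0.18 in PARP1, 0.10 in PRKDC and 0.07 in SUPT16H cells, against 0.22 in DDX17, 0.19 in HNRNPL, 0.18 in DDX5 and 0.13 in CLP1 cells, so the contrast between the series did not hold there. By hairpin, the member medians were 0.304, 0.262 and 0.178 in DDX17, 0.175, 0.193 and 0.178 in CLP1, and 0.219, 0.158 and 0.119 in HNRNPL cells. Those of DDX5 were 0.291, 0.202 and -0.266, the last being the hairpin that stood apart, and without it the median of DDX5 was 0.254. Those of PRKDC were -0.301, -0.278 and 0.226, so its hairpin 3 lay on the other side of the control from its mates, and without it the median was -0.322. The 2 lacZ arrays of the second series themselves lay 0.08 below and above their mean, which exceeds the median of PABPC1 and of SUPT16H. Replicate 2, most likely the hybridization that is the only control of the first series, was the lower of the 2. On replicate 3, 62 of 73 members were higher and 11 lower. Those higher included MRPL33 (6.95 against 6.48), MRPL30 (7.07 against 6.50) and MRPL48 (6.71 against 6.28). How far this bears on the differences of the first series was not tested.

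**Figure D1:**
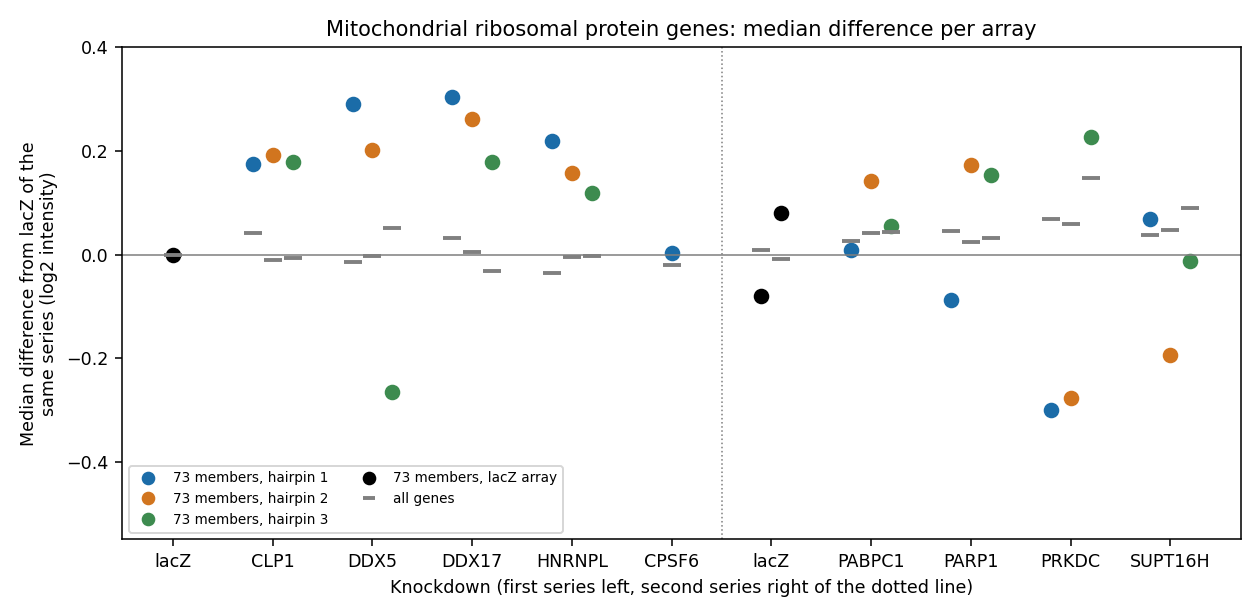
Median over the 73 members of the difference from the lacZ arrays of the same series (vertical axis, log2 intensity) for each array (points, coloured by hairpin number), with the median of all 18417 genes as grey dashes. DDX17, CLP1 and HNRNPL hairpins lay between 0.119 and 0.304, whereas DDX5 hairpin 3 and PRKDC hairpin 3 lay on the other side of 0 from their mates. On quantile-normalized values all 8 knockdowns had a median above 0.

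DDX17 knockdown raised 7 of the 73 members (9.59%) and lowered 0, while 2.77% of all genes passed the test in either direction and 1.22% as a rise. These were MRPL1, MRPL33, MRPL30 and MRPL48 of the large subunit and MRPS33, MRPS9 and MRPS22 of the small. At an unadjusted p under 0.05, 17 members were higher and 0 lower (23.3%, against 14.7% of all genes). MRPL33, the homolog of a small protein of the bacterial large subunit, had a level of 6.91 on the lacZ array and of 8.04, 9.03 and 8.48 with the DDX17 hairpins. All 3 hairpins lay far above the control and hairpin 2 was the highest array of the series. The difference was 1.61 ± 0.28 (SE), or 3.06-fold, with an adjusted p of 0.00137 (limma, Benjamini-Hochberg, 3 hairpins against 1 control). MRPL1, the homolog of the protein that forms the mobile L1 stalk of the ribosome, had a level of 6.13 on the lacZ array and of 7.50, 8.33 and 7.92 with the DDX17 hairpins. Its control array was again the lowest of the series, and the difference was 1.79 ± 0.33, or 3.46-fold, with an adjusted p of 0.00232. MRPS22, a mitochondrion-specific protein of the small subunit, had levels of 7.00 with lacZ and of 7.76, 8.03 and 7.93 with the hairpins, a difference of 0.90 ± 0.20 (adjusted p = 0.0102). The DDX17 levels of MRPS22 also lay above every array of the other 3 knockdowns, the nearest of which was HNRNPL hairpin 1 at 7.75.

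Of the remaining 4, MRPL30 had levels of 6.95 with lacZ and 7.83, 8.18 and 8.12 with the DDX17 hairpins (difference 1.09 ± 0.25, adjusted p = 0.0126). MRPS33 had 7.04 against 7.83, 8.50 and 8.24 (1.15 ± 0.28, adjusted p = 0.0235). MRPS9, a homolog of a bacterial small-subunit protein, had 7.12 against 7.97, 8.13 and 8.00 (0.92 ± 0.24, adjusted p = 0.0354). In all 3 the hairpins were above the control without overlap. MRPL48, whose adjusted p of 0.0482 was the highest of the 7, rose by 0.96 ± 0.26. Fitting the first series alone left 2 of the calls, MRPL33 and MRPL1, and leaving out hairpin 2 or 3 left 4 each. The rest of the calls thus depended on a spread estimated together with the second series. Fitting the second series alone also leaves fewer arrays, but raised the counts of PABPC1, PARP1 and SUPT16H against lacZ, as given below. The reason for these opposite changes was not tested. Without PRKDC hairpin 3 the number of DDX17 calls was 11, all higher (15.1%, against 3.63% of all genes in either direction). Cytosolic ribosomal protein genes, 67 of them, had a median of 0.29 in the same comparison and 5 of them rose.

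**Figure D2:**
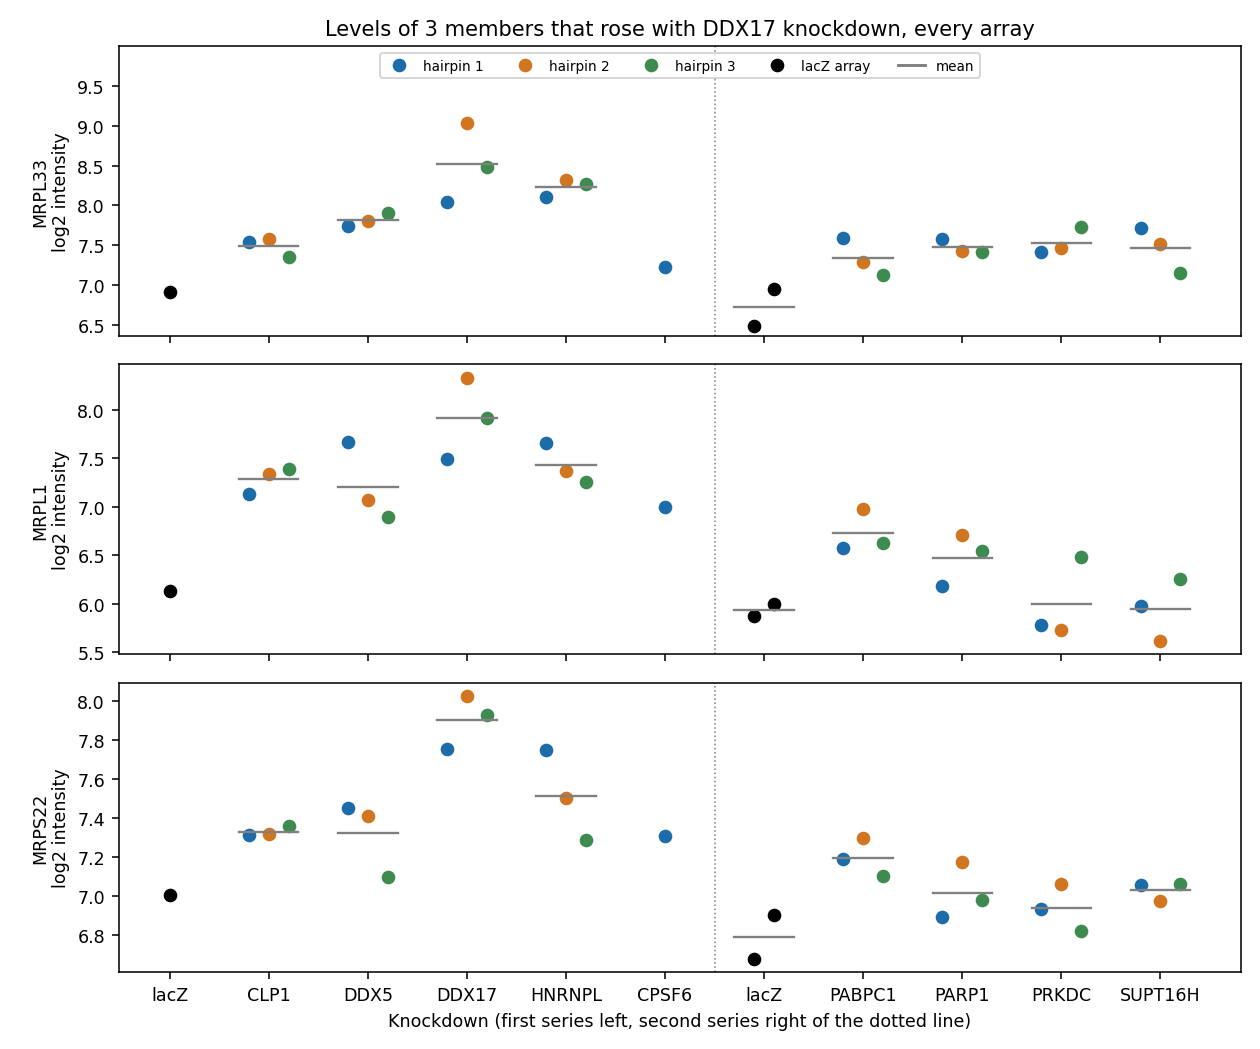
Levels of MRPL33, MRPL1 and MRPS22 (vertical axes, log2 intensity) on all 28 arrays, by knockdown, with points coloured by hairpin, lacZ arrays in black and the mean of each group as a grey line. For all 3 genes the highest mean of the first series was that of DDX17, and the lacZ array was the lowest array. Levels of the 2 series were normalized apart and are not comparable across the dotted line.

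HNRNPL knockdown raised 2 members (2.74%) and lowered 0, while 1.84% of all genes were called in either direction and 0.7% as a rise. They were again MRPL33 and MRPL1, in a comparison that shares its control array with that of DDX17. MRPL33 had levels of 8.10, 8.32 and 8.27 with the HNRNPL hairpins, which lay close together (difference 1.32 ± 0.28, 2.5-fold, adjusted p = 0.0108). MRPL1 had 7.66, 7.37 and 7.25 (1.30 ± 0.33, adjusted p = 0.0356), and lost its call without hairpin 1 or hairpin 2. With the first series fitted alone neither passed. Altogether 17 members were higher and 0 lower at an unadjusted p under 0.05 (23.3%, against 13.2% of all genes).

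CLP1 and DDX5 knockdown moved no member past the test, where 0.956% and 0.842% of all genes passed in either direction. At an unadjusted p under 0.05, 10 members were higher in CLP1 and 9 in DDX5 cells (13.7% and 12.3%, against 9.2% and 11.4% of all genes), and 0 were lower in either. The smallest adjusted p belonged to MRPL1 in both, with levels of 7.13, 7.34 and 7.39 in CLP1 and of 7.67, 7.07 and 6.89 in DDX5 cells. These levels all lay above the control of 6.13, with differences of 1.16 ± 0.33 (adjusted p = 0.0998) and 1.08 ± 0.33 (adjusted p = 0.138). All hairpins lay above the control in 34% of all genes for CLP1 and in 19.2% for DDX5. Further results for MRPL1 and other members follow. In CLP1 cells MRPL1 was followed by MRPS16 (0.47 ± 0.18, adjusted p = 0.33) and MRPL30 (0.63 ± 0.25, adjusted p = 0.34). In DDX5 cells it was followed by MRPL33 (0.91 ± 0.28, adjusted p = 0.141) and MRPL48 (0.77 ± 0.26, adjusted p = 0.207). Without DDX5 hairpin 3, which stood apart, MRPS33 passed in DDX5 cells, in a fit whose share of all genes is not given here. Without DDX5 hairpin 1 MRPL1 passed in CLP1 cells (1.37% of members, against 1.61% of all genes).

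The CPSF6 array has no replicate and no test. Its member median was 0.003 above the lacZ array, and 4 of 73 members differed by over 0.5, against 10.5% of all genes. MRPL1 (7.00 against 6.13), MRPS9 (8.02 against 7.12) and MRPL48 (7.19 against 6.60) were above and MRPS12 below the control.

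Because all comparisons with lacZ in the first series rest on 1 array, each knockdown was also set against the mean of the other 3 knockdowns with 3 hairpins of its series, which uses no control array. DDX17 raised 2 members (2.74%) and lowered 0 in this comparison, while 0.874% of all genes passed in either direction and 0.44% as a rise. MRPS22 differed by 0.52 ± 0.11 (adjusted p = 0.0231) and MRPL33 by 0.68 ± 0.16 (adjusted p = 0.0376). The family median was 0.17, with 57 of 73 members above 0, against 0.00 for all genes. The cytosolic ribosomal protein genes had a like median of 0.16, with 57 of 67 above 0. All 3 DDX17 hairpins lay above the 9 arrays of the other knockdowns in 5 members, MRPL30, MRPL58, MRPS22, MRPS23 and MRPS9, while 1.05% of all genes did so. MRPL58 is a peptidyl-tRNA hydrolase that became part of the large subunit. Without DDX5 hairpin 3, which pulls the mean of the other knockdowns down, the family median of DDX17 was 0.10 with 50 members above 0, and the same count of 2 members passed. Without DDX17 hairpin 2 or 3, or with the series fitted alone, 0 passed. MRPS22 alone passed without CLP1 hairpin 1 or 3, DDX5 hairpin 2 or HNRNPL hairpin 1. Without DDX5 hairpin 1, 4 members passed (5.48%, against 3.03% of all genes).

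CLP1 lowered 1 member (1.37%) against the other knockdowns, while 0.722% of all genes passed in either direction and 0.239% as a fall. It was MRPL33, which differed by -0.70 ± 0.16 (adjusted p = 0.0385). Its levels of 7.53, 7.57 and 7.34 in CLP1 cells lay below all 9 arrays of DDX5, DDX17 and HNRNPL, the lowest of which was 7.74, and above the lacZ array at 6.91. MRPL48 likewise lay below all 9 arrays without passing the test, so that 2 members did so, against 1.2% of all genes. The call for MRPL33 was lost without any 1 of the 3 CLP1 hairpins, and without DDX17 hairpin 2 or 3, HNRNPL hairpin 3, PABPC1 hairpin 2 or SUPT16H hairpin 2.

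DDX5 and HNRNPL moved no member past the test against the other knockdowns, where 0.038% and 0.0977% of all genes passed, and 1 and 3 members were higher and 5 and 1 lower at an unadjusted p under 0.05 (8.22% and 5.48%, against 9.2% and 8.53% of all genes). The median of DDX5 was -0.16, with 16 of 73 members above 0. This rested on hairpin 3, without which the median was 0.05 with 48 members above 0 and 0 passed. Without hairpin 1, which leaves hairpins 2 and 3, 11 members passed, 10 of them lower. The share of all genes that passed in that fit is not given here, so this count is not a result about the members. The smallest adjusted p values of HNRNPL were those of MRPS25 (0.39 ± 0.11, adjusted p = 0.26), MRPL24 and MRPL10. In MRPS25 the HNRNPL hairpins all lay above every array of the other knockdowns, while 0.918% of all genes did so.

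**Figure D3:**
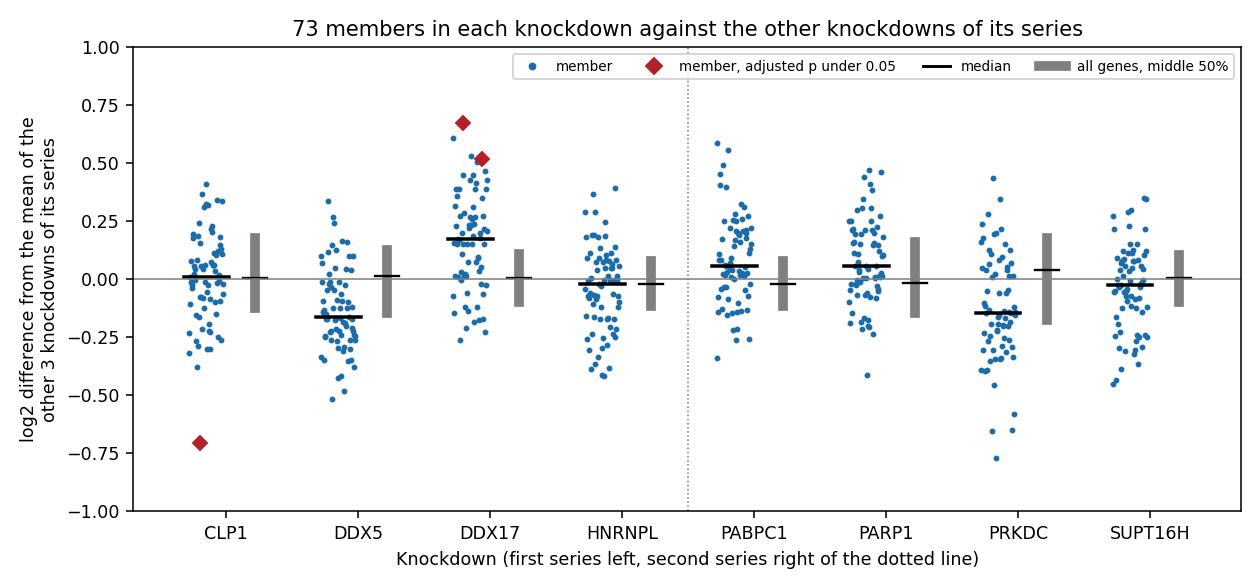
Difference of each of the 73 members (points; red diamonds passed the test) from the mean of the other 3 knockdowns of its series (vertical axis, log2), with the member median as a black line and the middle 50% of all genes as a grey bar. The member median was 0.17 in DDX17, -0.16 in DDX5 and -0.14 in PRKDC, and 2 members of DDX17 and 1 of CLP1 passed.

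PRKDC knockdown moved the most members in number against lacZ, with 10 higher and 7 lower (23.3% of 73), but 35.7% of all genes passed there, 19.6% as a rise and 16.1% as a fall. The share of members called was thus below that of all genes. On quantile-normalized values 14 were higher and 5 lower, where 4783 of 18417 genes passed, 49.9% of them as a rise. Leaving out lacZ replicate 2 left 1 call, that of MRPS31 (1.37%, against 2.7% of all genes). Leaving out lacZ replicate 3 left 11 (15.1%, against 15.1% of all genes), so the number rests on the control arrays. By subunit, 9 of 50 large-subunit members rose and 4 fell, and 1 of 23 small-subunit members rose and 3 fell. MRPS31, a mitochondrion-specific protein of the small subunit, had levels of 7.81 and 7.83 with lacZ and of 6.84, 6.86 and 6.95 with the PRKDC hairpins. The hairpins lay close together and below every other array of the series, and the difference was -0.94 ± 0.18 (0.521-fold, adjusted p = 0.00152, with 4.28e-05 to 0.0358 over 32 alternatives).

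MRPL42, a mitochondrion-specific protein of the large subunit, had levels of 8.93 and 8.53 with lacZ and of 7.65, 7.81 and 6.84 with the PRKDC hairpins. Hairpin 3 was the lowest array, and the difference was -1.30 ± 0.30 (0.406-fold, adjusted p = 0.00407). MRPS21, a homolog of a small protein of the bacterial small subunit, had 9.76 and 9.50 against 8.46, 8.43 and 8.73 (-1.09 ± 0.24, adjusted p = 0.00359). MRPL32, whose cleavage in the mitochondrial matrix precedes its assembly into the ribosome, had 8.57 and 8.72 against 7.45, 7.33 and 8.20 (-0.98 ± 0.25, adjusted p = 0.00648). The groups did not overlap in any of these 3 genes, and in MRPL32 hairpin 3 came nearest to the controls. Every PRKDC hairpin lay below both controls in 27.5% of all genes. MRPS10 (-0.76), MRPL39 (-0.66) and MRPL18 (-0.81) completed the members that fell.

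Among the members that rose, MRPL23, which belongs to a protein family at the exit of the ribosomal tunnel, had levels of 6.90 and 7.15 with lacZ and of 7.60, 7.51 and 7.94 with the PRKDC hairpins (0.66 ± 0.15, adjusted p = 0.00394). MRPL38, which is mitochondrion-specific, had 7.09 and 7.34 against 7.94, 7.85 and 8.14 (0.76 ± 0.18, adjusted p = 0.00539). MRPL33 had 6.48 and 6.95 against 7.41, 7.46 and 7.73 (0.81 ± 0.22, adjusted p = 0.00968). In each of the 3 genes the hairpins lay above both controls, as they did in 38.7% of all genes, and lacZ replicate 2 was the lower control. MRPL28 (0.70), MRPS18A (0.62), MRPL36 (0.84), MRPL52 (0.63), MRPL12 (0.70), MRPL54 (0.75) and MRPS25 (0.39) rose as well. MRPL12 is the homolog of the protein of the stalk at which translation factors bind. MRPL36 was read by a second probeset that differed by 0.47, so the size of its change depends on the probeset.

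Without PRKDC hairpin 3, which stood apart from its mates, 5 members rose and 13 fell. The share of all genes that passed in that fit is not given here, so these counts have no background. MRPL20 had levels of 8.04, 8.07 and 9.49 with the PRKDC hairpins, MRPL46 of 6.89, 7.11 and 8.79, and MRPL50 of 6.66, 6.87 and 8.26. In these 3 genes hairpins 1 and 2 lay below both lacZ arrays and hairpin 3 above them, and the 3 fell with hairpins 1 and 2 alone. Against the other knockdowns of the series the member median of PRKDC cells was -0.14, with 25 of 73 above 0, or -0.26 with 11 above 0 without hairpin 3. In this comparison 0 members passed, where 0.0869% of all genes did, and 3 members were higher and 12 lower at an unadjusted p under 0.05 (20.5%, against 24.5% of all genes). Without DDX5 hairpin 3, however, 9 passed, 1 higher and 8 lower (12.3%, against 14.1% of all genes). MRPS31 (-0.65 ± 0.13, adjusted p = 0.0502) missed the threshold narrowly, and over 32 alternatives its adjusted p was 0.00184 to 0.199 and passed in 8. MRPL42 (-0.77 ± 0.22, adjusted p = 0.116) and MRPL35 (-0.66 ± 0.20, adjusted p = 0.121) followed. All 3 PRKDC hairpins lay below the 9 other arrays in MRPL35, MRPL37 and MRPS31 and above them in MRPL36, while 4.25% and 5.36% of all genes did so.

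**Figure D4:**
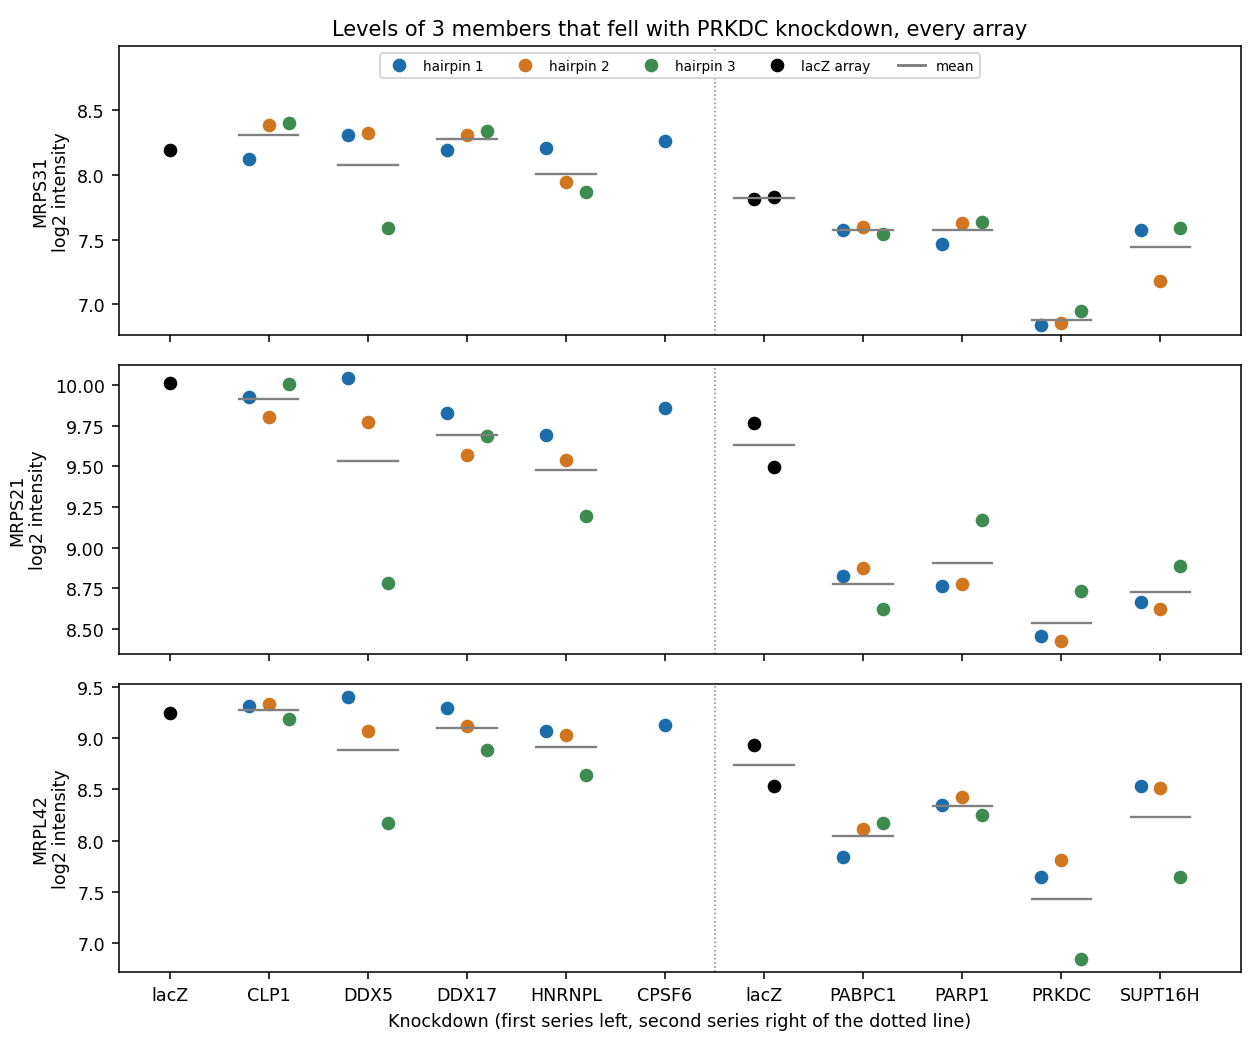
Levels of MRPS31, MRPS21 and MRPL42 (vertical axes, log2 intensity) on all 28 arrays, by knockdown, with points coloured by hairpin, lacZ arrays in black and group means as grey lines. The PRKDC hairpins had the lowest mean of the second series in all 3, and in each gene all 12 hairpin arrays of that series lay below both lacZ arrays. Levels of the 2 series were normalized apart.

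PABPC1 knockdown raised 2 members and lowered 2 (5.48%), close to the 5.76% of all genes called in either direction, of which 1.73% rose and 4.02% fell. MRPL3, the homolog of a core protein near the peptidyl transferase centre, had levels of 8.91 and 8.92 with lacZ and of 9.40, 9.83 and 9.55 with the PABPC1 hairpins (0.68 ± 0.16, adjusted p = 0.016). MRPL38 had 7.82, 7.91 and 7.92 with the hairpins (0.67 ± 0.18, adjusted p = 0.0318). Both genes lay above both controls with every hairpin, as did 30.5% of all genes. MRPS21 had 8.83, 8.87 and 8.62 (-0.86 ± 0.24, adjusted p = 0.0392) and MRPL32 had 7.83, 7.93 and 7.73 (-0.82 ± 0.25, adjusted p = 0.0487), below both controls, as were 25.4% of all genes. Without either of the lacZ arrays, or without hairpin 2, 0 of the 4 passed. Without DDX5 hairpin 3 the number was 15 (20.5%, against 16.3% of all genes) and without DDX5 hairpin 1 it was 7 (9.59%, against 10.9%). At an unadjusted p under 0.05, 14 members were higher and 4 lower (24.7%, against 25.1% of all genes).

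PARP1 knockdown raised 1 member (1.37%) and lowered 0, where 5.44% of all genes passed in either direction and 2.46% as a rise. It was MRPL33, at 7.58, 7.42 and 7.41 (0.76 ± 0.22, adjusted p = 0.0416), and its call was lost without any 1 of the 3 PARP1 hairpins, without either lacZ array, without CLP1 hairpin 1 or 2 or SUPT16H hairpin 2 and in 3 of the settings that kept all arrays, with an adjusted p of 0.0175 to 0.574 over 32 alternatives. Without DDX5 hairpin 1 or 3 or PRKDC hairpin 2 or 3 the number was 5, 7, 2 and 3. These were 6.85%, 9.59%, 2.74% and 4.11% of members, against 8.37%, 10.6%, 5.25% and 6.54% of all genes. SUPT16H knockdown raised 2 members and lowered 1 (4.11%), where 9.53% of all genes passed in either direction, 3.77% as a rise and 5.76% as a fall. MRPL33 had levels of 7.71, 7.52 and 7.14 (0.74 ± 0.22, adjusted p = 0.0344), MRPL38 of 7.76, 7.76 and 7.85 (0.58 ± 0.18, adjusted p = 0.0474) and MRPS21 of 8.66, 8.62 and 8.89 (-0.91 ± 0.24, adjusted p = 0.0236). None of the 3 genes overlapped with the lacZ arrays, where 32.5% of all genes lay above and 24.6% below both with every hairpin. Without lacZ replicate 2, 0 of the 3 passed. Without DDX5 hairpin 1 or 3, HNRNPL hairpin 3 or PRKDC hairpin 3 the number was 8, 11, 5 and 9 (11%, 15.1%, 6.85% and 12.3%, against 15.4%, 21.6%, 11.2% and 11.4% of all genes). In PARP1 cells 13 members were higher and 4 lower at an unadjusted p under 0.05 (23.3%, against 19.8% of all genes), and in SUPT16H cells 10 and 6 (21.9%, against 29.5%).

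Set against the other knockdowns of the second series, PABPC1, PARP1 and SUPT16H moved 0 members past the test, where 0.0869%, 0.554% and 0.0109% of all genes passed. At an unadjusted p under 0.05, 6 members were higher and 1 lower in PABPC1, 3 higher and 1 lower in PARP1, and 2 higher and 8 lower in SUPT16H cells (9.59%, 5.48% and 13.7%, against 10.3%, 18.6% and 8.98% of all genes). The smallest adjusted p values were those of MRPL3 (0.40 ± 0.12, adjusted p = 0.172) in PABPC1, MRPL57 (0.41 ± 0.12, adjusted p = 0.115) in PARP1 and MRPS16 (-0.36 ± 0.10, adjusted p = 0.263) in SUPT16H cells. The SUPT16H hairpins all lay below every array of the other knockdowns in MRPL23, MRPS16 and MRPS25 and above them in MRPS30, while 0.994% and 0.825% of all genes did so. Those of PABPC1 lay above them in MRPL44, as did 0.809% of all genes. Without PRKDC hairpin 3 among the other knockdowns, MRPL16 and MRPL20 were higher in PABPC1 cells (2.74% of members, against 1.68% of all genes). Without DDX5 hairpin 3 MRPL35 passed in PABPC1 cells (1.37%, against 1.08%) and MRPL57 and MRPS33 in PARP1 cells (2.74%, against 4.79%). MRPS21 and MRPL38, which passed against lacZ in PABPC1, PRKDC and SUPT16H cells, differed from the other knockdowns by -0.26 to 0.22 and by -0.21 to 0.20 over the 4 knockdowns and did not pass.

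The same question was put across the series, as the mean difference from lacZ of the 4 knockdowns of the second series minus that of the first. The members had a median of -0.23, while all genes had 0.07, and 20 of 73 lay above 0. The cytosolic ribosomal protein genes had a median of -0.32, with 7 of 67 above 0. None of the 73 members passed, where 0.0597% of all genes did, and 0 were higher and 3 lower at an unadjusted p under 0.05 (4.11%, against 6.58% of all genes). MRPL1 had the lowest value, -0.98 ± 0.36, with an adjusted p of 0.556. In the second series its levels were 5.87 and 5.99 with lacZ, 6.58, 6.98 and 6.63 with PABPC1, 6.18, 6.71 and 6.54 with PARP1, 5.78, 5.72 and 6.48 with PRKDC, and 5.97, 5.61 and 6.26 with SUPT16H hairpins. The PABPC1 and PARP1 arrays lay above both controls, as in 30.5% and 27% of all genes, whereas those of PRKDC and SUPT16H overlapped with them. The knocked-down genes, the cultures and the normalization of the series cannot be told apart here.

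Over all 8 comparisons with lacZ, 24 of the 73 members (32.9%) passed at least once, against 40% of all genes, 17 of them always as a rise and 7 always as a fall, and 49 did not pass in any. MRPL33 passed in 5 comparisons, MRPL38 and MRPS21 in 3 each, and MRPL1 and MRPL32 in 2 each, in comparisons that share their control arrays. MRPL33, MRPL28, MRPL54 and MRPS18A were above every lacZ array of their series on all 24 arrays of the 8 knockdowns, as were 2.5% of all genes. MRPS21 was below on 23 of the 24, the exception being DDX5 hairpin 1, at 10.04 against 10.01 with lacZ. A pattern common to all knockdowns is read against the same 2 control hybridizations, and their part in it was not tested. For MRPL33 the differences were 0.58 ± 0.28 in CLP1, 0.91 ± 0.28 in DDX5 and 0.62 ± 0.22 in PABPC1 cells, where it did not pass.

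**Figure D5:**
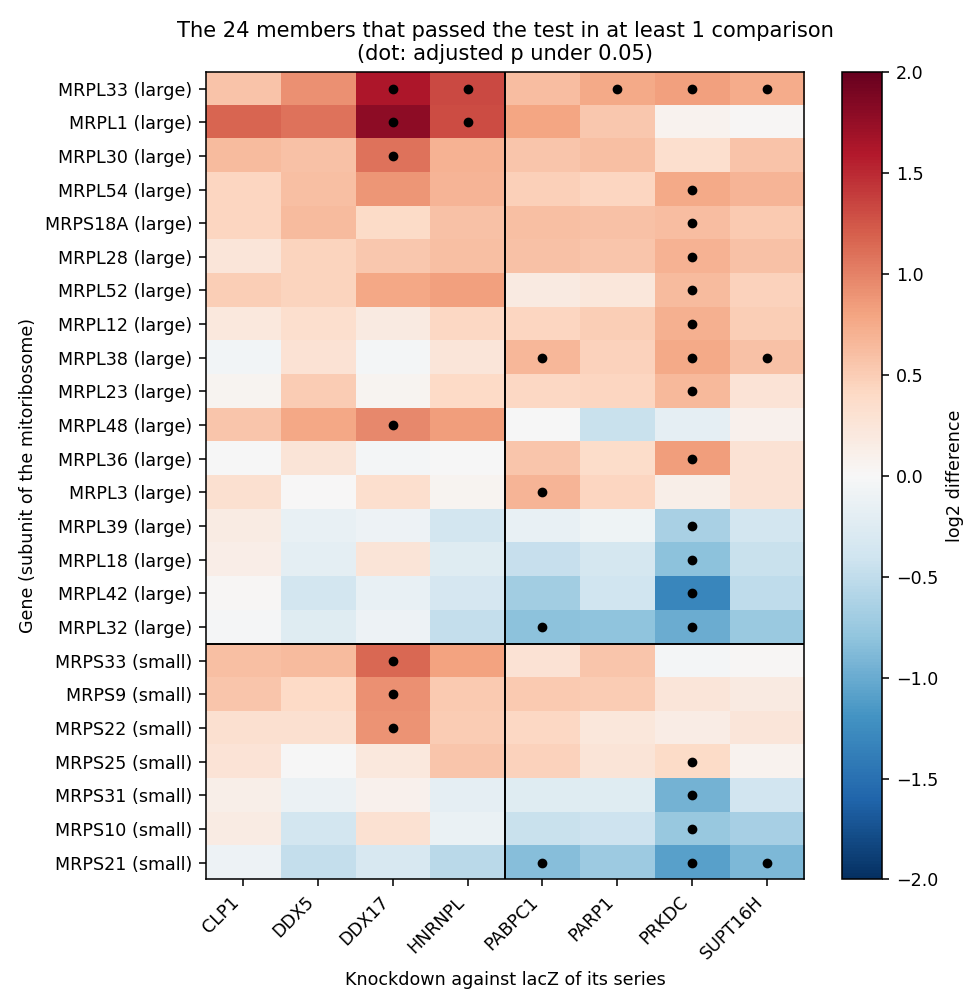
Difference from lacZ (colour, log2) of the 24 members that passed the test in at least 1 comparison (rows, with their subunit) in the 8 knockdowns (columns), with a dot where the adjusted p was under 0.05. PRKDC holds 17 of the dots and DDX17 holds 7. On quantile-normalized values PRKDC had 14 rises and 5 falls, where 4783 of 18417 genes passed.

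The paralogs MRPS18A, MRPS18B and MRPS18C, which are related to each other in sequence, had the following differences from lacZ. MRPS18A differed from lacZ by 0.38 to 0.63 in the 8 knockdowns and passed in PRKDC. MRPS18B lay at 0.14, -0.20, 0.20 and 0.11 in CLP1, DDX5, DDX17 and HNRNPL cells and at -0.48 to -0.40 in the 4 knockdowns of the second series. MRPS18C lay at 0.47 to 0.73 in the first series and at -0.36 to 0.02 in the second, and neither MRPS18B nor MRPS18C passed in any comparison. The differences between the paralogs were not tested. Members that varied most over the arrays of a series were MRPL33 (SD 0.556), MRPL46 (0.531), MRPL1 (0.518) and MRPL45 (0.463) in the first and MRPL46 (0.55), MRPL42 (0.524), MRPL20 (0.456) and MRPL50 (0.429) in the second. MRPL45, which lies at the tunnel exit where the ribosome meets the inner membrane, had 9.74 with lacZ, 10.61, 9.84 and 8.89 with the DDX5 hairpins and 9.99, 10.08 and 9.27 with those of HNRNPL. MRPL46 had 9.29, 8.63 and 7.39 with DDX5 and 8.72, 8.77 and 7.86 with HNRNPL hairpins, so hairpin 3 was the lowest of each target in both genes. MRPL20 and MRPS18B had 2 and 3 probesets with the same mean level (9.17 and 9.15) and the same differences, so these are not separate readings. The probesets of MRPL36 differed by -0.04 and 0.66 in DDX17 cells.

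Other genes of the mitoribosome and of its expression were read from 5 lists. The lists held 25 genes of assembly and rRNA modification, 14 translation factors, 16 aminoacyl-tRNA synthetases, 14 genes of mitochondrial transcription and biogenesis and 4 mitoribosome subunits with other names. Of these 73 genes 0 passed against lacZ in CLP1, DDX5, DDX17 or HNRNPL cells. At an unadjusted p under 0.05, 7 were higher and 3 lower in DDX17, 6 and 3 in HNRNPL, 2 and 2 in CLP1, and 1 and 5 in DDX5 cells (13.7%, 12.3%, 5.48% and 8.22%, against 14.7%, 13.2%, 9.2% and 11.4% of all genes). In PRKDC cells 8 of the 25 assembly genes fell and 1 rose, 2 of 14 factors, 2 of 16 synthetases and 4 of 14 biogenesis genes fell, and 1 biogenesis gene and 1 other-named subunit rose, which made 19 of the 73 (26%), where 35.7% of all genes passed. These were 3 rises and 16 falls, where 19.6% of all genes rose and 16.1% fell. MTERF1, a terminator of mitochondrial transcription, differed by -1.31 ± 0.26 (adjusted p = 0.00149), the release factor MTRF1 by -0.86 ± 0.19 (adjusted p = 0.00321) and the assembly GTPase GTPBP10 by -1.12 ± 0.25 (adjusted p = 0.00365). TFB2M, a factor of mitochondrial transcription, differed by -0.87 ± 0.22 (adjusted p = 0.00642). The subunit GADD45GIP1 rose by 0.74 ± 0.22 (adjusted p = 0.0143).

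In SUPT16H cells 3 assembly genes, 2 factors and 3 biogenesis genes fell. These were 8 of the 73 genes (11%), where 9.53% of all genes passed in either direction and 5.76% as a fall. Among them were MTERF1 (-1.14 ± 0.26), GTPBP10 (-1.06 ± 0.25), TFB2M (-0.86 ± 0.22) and PPRC1 (-0.65 ± 0.18), with adjusted p of 0.00754 to 0.0238. In PARP1 cells PPRC1, a coactivator of NRF1, differed by -0.82 ± 0.18 (adjusted p = 0.00604), GABPA, the DNA-binding subunit of the ETS factor NRF2, by -0.82 ± 0.20 (adjusted p = 0.0148), MTERF1 by -0.94 ± 0.26 (adjusted p = 0.0291) and GTPBP10 by -0.85 ± 0.25 (adjusted p = 0.0473). These 4, all falls, were 5.48% of the 73 genes, where 5.44% of all genes passed in either direction and 549 of 18417 fell. GABPA also fell in PRKDC cells, by 0.74. In PABPC1 cells MTERF1 differed by -0.88 ± 0.26 (adjusted p = 0.0414) and no other gene of the lists passed. This was 1.37% of the 73 genes, where 5.76% of all genes passed in either direction and 4.02% as a fall.

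The cytosolic ribosomal protein genes are set beside the mitochondrial ones as a description, and the difference was not tested. Their median against lacZ was 0.15 in CLP1, 0.14 in DDX5, 0.29 in DDX17 and 0.16 in HNRNPL cells, near the 0.18, 0.08, 0.23 and 0.15 of the mitochondrial members. In PABPC1 cells it was -0.26, with 9 of 67 genes above 0 and 4 that fell, whereas the mitochondrial members had a median of 0.02 and 41 of 73 above 0. In PRKDC cells it was -0.28 with 3 that rose and 18 that fell, in PARP1 cells -0.00 and in SUPT16H cells 0.11.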

How the data were processed

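RNA was amplified with random primers and hybridized to Affymetrix Human Gene ST1.0 arrays. Each deposited value is the intensity of a probeset, which the authors computed by RMA (background subtraction, quantile normalization and summary of probes, with aroma.affymetrix; version not given in the sources used here) and left on a linear scale. Of 33252 probesets 19460 had 1 symbol in the platform annotation, 1754 several and 12038 none, which gave 18417 genes, taken to log2 with no filter. Probe-level data were not used here.

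One linear model with a mean per knockdown and per lacZ group of a series was fitted to all 28 arrays with limma 3.58.1 in R 4.3.3 (trended variances, 17 residual and 8 prior degrees of freedom). The spread of the single lacZ array of the first series was taken to be that of the other groups. Two-sided p-values received the Benjamini-Hochberg adjustment across the 18417 genes in each comparison, and a gene passed the test, or was called, under 0.05. CPSF6 has 1 array and was not tested. The precision rests on the number of arrays.

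Members that passed and moved the same way in 3 of 3 hairpins were named, at most 6 per direction and comparison, or the 3 with the smallest adjusted p where none passed. Named as well were the 4 members per series with the largest SD, the MRPS18 paralogs, members with several probesets, members that did not overlap with other knockdowns and up to 4 genes per comparison from the pathway lists. Other members named were chosen after their values were seen. The members, lists and tests were chosen with earlier results of these data known. Alternatives were quantile normalization within a series, median centring, a pseudocount of 16, leaving out the lowest 25% of genes, each series alone, the lacZ array in both series as a bridge, leaving out each array in turn other than CPSF6 and the first lacZ, and hairpin numbers as a replicate block. Promoter letters were counted and figures drawn with Python 3.11.15, numpy 2.4.6, pandas 2.3.3 and matplotlib 3.10.9.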

Additional observations from a re-analysis of the deposited data

How the results depend on the processing

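Quantile normalization gave member medians against lacZ of 0.132 in CLP1, 0.199 in PABPC1 and 0.073 in SUPT16H cells. It called 7 members against lacZ in PABPC1, 4 in PARP1 and 6 in SUPT16H, where 992, 990 and 1424 of 18417 genes passed. Against the other knockdowns it called 1 each in DDX17 and PRKDC, where 144 and 91 genes passed. Median centring gave medians of 0.159 in CLP1 and 0.306 in DDX17 and 1 call in PRKDC against the other knockdowns. A pseudocount of 16 gave a median of 0.172 in CLP1 and 0 calls in PARP1 against lacZ. Each series fitted alone gave 2 calls in DDX17, 0 in HNRNPL, 14 in PABPC1, 7 in PARP1 and 9 in SUPT16H against lacZ. Of all genes 153, 97, 3364, 2138 and 4338 passed there, against 511, 338, 1060, 1002 and 1756 in the main fit. Against the other knockdowns it gave 0 in CLP1 and DDX17, 3 in PARP1 and 8 in PRKDC, where 4, 19, 1319 and 3248 genes passed. The bridge over the lacZ array in both series gave medians of 0.114 in CLP1 and 0.067 in HNRNPL. It gave 1 call each in CLP1 and DDX5, where 689 and 512 genes passed. Between the series it called 40 members, where 11472 of 18417 genes passed, since it takes the shift of 1 array as exact. No other setting that kept all arrays moved these member counts by over 1.5 times, and no named difference of a member turned its direction. With median centring, however, the 1 call in PARP1 against lacZ was a fall of another member than in the main fit. The 4 calls there with quantile normalization held 2 rises and 2 falls, and 0 were shared with the main fit. Quantile normalization also turned the sign of the medians of PRKDC (-0.113 to 0.096) and SUPT16H (-0.069 to 0.073).

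Leaving out each hairpin array and each lacZ array of the second series in turn, from any group, gave medians against lacZ of 0.183 to 0.195 in CLP1, -0.026 to 0.254 in DDX5, 0.229 to 0.272 in DDX17, 0.135 to 0.195 in HNRNPL, -0.057 to 0.176 in PABPC1, 0.007 to 0.169 in PARP1, -0.322 to -0.004 in PRKDC and -0.119 to 0.042 in SUPT16H. Calls against lacZ ranged from 0 to 1 in CLP1 and DDX5, 4 to 11 in DDX17, 1 to 3 in HNRNPL, 0 to 15 in PABPC1, 0 to 7 in PARP1, 1 to 25 in PRKDC and 0 to 11 in SUPT16H. Against the other knockdowns they ranged from 0 to 1 in CLP1, 0 to 4 in DDX17, 0 to 11 in DDX5, 0 to 2 in PABPC1 and PARP1, 0 to 9 in PRKDC and 0 to 0 in HNRNPL and SUPT16H, and from 0 to 0 between the series. The highest counts of PABPC1, PARP1, PRKDC and SUPT16H against lacZ were those without DDX5 hairpin 3, an array of the other series that enters them through the shared estimate of the spread alone. DDX5 hairpin 3 and PRKDC hairpin 3 were singled out after their values were seen. The cause of the other differences was not tested.

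Hairpin numbers do not pair arrays: same-numbered arrays had correlations of -0.575 to 0.833 in their deviations, and 9 of 24 correlated best with their own number. With the replicate block 2 members were called in DDX17 and 1 in CLP1 against the other knockdowns and 0 in the other 6. With 1 or 2 control hybridizations, changes against lacZ that are common to all knockdowns cannot be told apart from the state of the control cultures.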
